A study of Mus musculus with 6 samples.

Results

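The collagen genes of mouse bone marrow were examined in animals given NOX-A12 and in untreated animals. Members were chosen by symbol: every gene named Col, a number, a and a number, with the probe set of highest mean over the 6 arrays standing for each gene. This gave 42 genes of the 18193 that had a probe set naming a single symbol. They were grouped by chain type into 11 fibrillar, 6 basement membrane and 25 other genes, and 27 of the 42 had more than 1 probe set. Of the chains listed for these classes, Col6a6, Col21a1 and Col28a1 were not analysed here.

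Collagens are secreted proteins in which 3 chains wind into a triple helix. Fibrillar chains pack into the tensile fibrils of bone, tendon and stroma, type IV chains form the sheet-like network of basement membranes under endothelium and other cells, and the remaining types link fibrils, form microfibrils or short-chain networks, or span the cell membrane. In marrow, collagens are made mainly by bone-forming cells, reticular stromal cells and the vessel wall, which are a small part of the tissue next to the blood-forming cells.

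Total RNA of whole marrow came from 3 untreated and 3 NOX-A12 treated SCID/Bg mice, a strain with a severe lymphocyte deficiency and the beige defect, with 1 mouse per Mouse Genome 430 2.0 array. NOX-A12 is a mirror-image RNA oligonucleotide that binds the chemokine CXCL12, which holds blood-forming cells in the marrow. The labels used here state no age or sex of the animals and no dose, route or time for the drug, and the controls are described as untreated, with no mention of a vehicle. Transcript levels in whole marrow cannot tell fewer cells of a type from less RNA per cell.

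Array medians ranged from 44.8 to 45.6 in intensity. All 8 blood-forming cell markers measured, Ptprc and Mpo among them, were bright, so the labelled tissue was borne out. Untreated mouse 3 stood apart: 851 of its probe sets differed over 2-fold from the remaining mice's median, where the others had 44 to 67 such probe sets. Values without it are given for the main counts and for some of the genes and lists that it moved. Changes are NOX-A12 minus untreated in log2(intensity + 16), a scale that understates changes of dim probe sets, with standard errors (SE). A probe set is called dim where its mean was below the median of all probe sets, an intensity of 44.6, and bright otherwise. Intensities of different probe sets were not compared with each other.

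RefSeq start regions were at hand for 33 of the 42 genes, and 3 of them are shown to set a chain whose groups did not overlap (Col3a1) beside the fibrillar chain Col1a2, whose groups did, and Col8a1, the gene with the largest difference. Each is the 250 bases before the annotated start, 5′ to 3′ on the gene's strand in build GRCm38.p6, with capitals for 3 motifs read on both strands: the TATA box letters TATAAA, the CCAAT box and the GC box letters GGGCGG. Col3a1 lies on the plus strand at chr1:45311288-45311537, Col1a2 on the plus strand at chr6:4505368-4505617 and Col8a1 on the minus strand at chr16:57754738-57754987. The Col3a1 stretch holds a TATAAA with its first base at -117 from the start, and the Col1a2 stretch a CCAAT at -109 and GGGCGG at -205 and -188. The Col8a1 stretch holds CCGCCC, the reverse complement of GGGCGG, at -170, -73, -66 and -23.

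Col3a1: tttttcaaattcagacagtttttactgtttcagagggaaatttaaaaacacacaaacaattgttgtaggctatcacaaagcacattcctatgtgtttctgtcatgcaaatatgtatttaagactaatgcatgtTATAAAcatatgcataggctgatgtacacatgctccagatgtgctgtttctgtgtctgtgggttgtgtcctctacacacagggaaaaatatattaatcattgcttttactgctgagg

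Col1a2: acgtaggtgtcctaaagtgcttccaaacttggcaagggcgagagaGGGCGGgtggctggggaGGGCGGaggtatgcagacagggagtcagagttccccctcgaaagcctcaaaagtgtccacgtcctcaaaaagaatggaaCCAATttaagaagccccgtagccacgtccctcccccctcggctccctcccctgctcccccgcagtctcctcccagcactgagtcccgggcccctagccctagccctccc

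Col8a1: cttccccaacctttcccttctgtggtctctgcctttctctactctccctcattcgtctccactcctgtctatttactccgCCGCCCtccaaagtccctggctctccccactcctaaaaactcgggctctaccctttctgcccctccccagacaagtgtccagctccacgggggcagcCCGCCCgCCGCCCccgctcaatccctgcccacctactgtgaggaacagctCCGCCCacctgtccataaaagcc

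Col4a1 and Col4a2, which encode partner chains, lie head to head on chromosome 8. Their annotated starts are 11312826 for Col4a1 on the minus strand and 11312805 for Col4a2 on the plus strand. The 22 bases at chr8:11312805-11312826, plus strand, run from 1 start to the other and are shown because these 2 neighbours both averaged lower in treated marrow. The annotated genes overlap here, so these bases lie after both starts, unlike the stretches above, which lie before the start. Capitals mark a GGGCGG.

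Col4a1 and Col4a2: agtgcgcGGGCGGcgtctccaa

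Over windows of 300 bases (250 before to 50 after the start), GGGCGG on either strand was found in 22 of the 36 windows of collagen genes (61.1%) and in 35.7% of all 32851 windows. CCAAT was found in 36.1% of collagen and 37.4% of all windows, and TATAAA in 13.9% and 13.6%. Matches of GGGCGG can overlap each other, as those at -19 and -15 of Col8a2 do, and can share letters with a CCAAT match. A match is only a description of the letters, and no match says only that they are not in this window.

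None of the 42 collagen genes passed the test for a difference between treated and untreated marrow, and most averaged slightly lower. With limma and Benjamini-Hochberg adjustment over all 45037 probe sets, 0 collagen genes had an adjusted p under 0.05, and 0% of all probe sets did. The lowest adjusted p of a collagen gene was 0.926. Of the 42 genes, 31 (73.8%) had a value below 0, where 52.8% of all genes did. The median change was -0.10 for the collagens and -0.01 for all genes. At an unadjusted p under 0.05, 5 collagen genes were lower (11.9%, against 3.53% of all genes) and 0 were higher (against 1.78%). Those 5 were Col3a1, Col4a1, Col8a1, Col8a2 and Col11a2. All 3 treated mice lay below all 3 untreated mice for 6 genes (14.3%, against 6.68% of all genes) and above them for 1 (2.38%, against 3.92%). Among the 22 bright collagen genes 17 were lower (77.3%), where 52.6% of bright genes were, and 4 were lower without overlap (18.2%, against 7.31%). Without untreated mouse 3, 13 of the 22 were lower.

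The excess of lower values rested in part on a few mice. Without untreated mouse 3, 26 of 42 genes were lower (61.9%), where 51.5% of all genes were, with a median of -0.06. At an unadjusted p under 0.05, 4 genes were then lower (9.52%, against 2.92% of all genes) and 2 were higher. The share of all genes higher without that mouse was not computed. With all mice it was 1.78%. Without NOX-A12 mouse 2 again 26 genes were lower, where 51.8% of all genes were. In that fit 2 genes, Col3a1 and Col8a2, were lower at an unadjusted p under 0.05 (4.76%, against 2.2% of all genes). Without NOX-A12 mouse 1 there were 3 such genes (7.14%, against 2.51%).

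**Figure D1:**
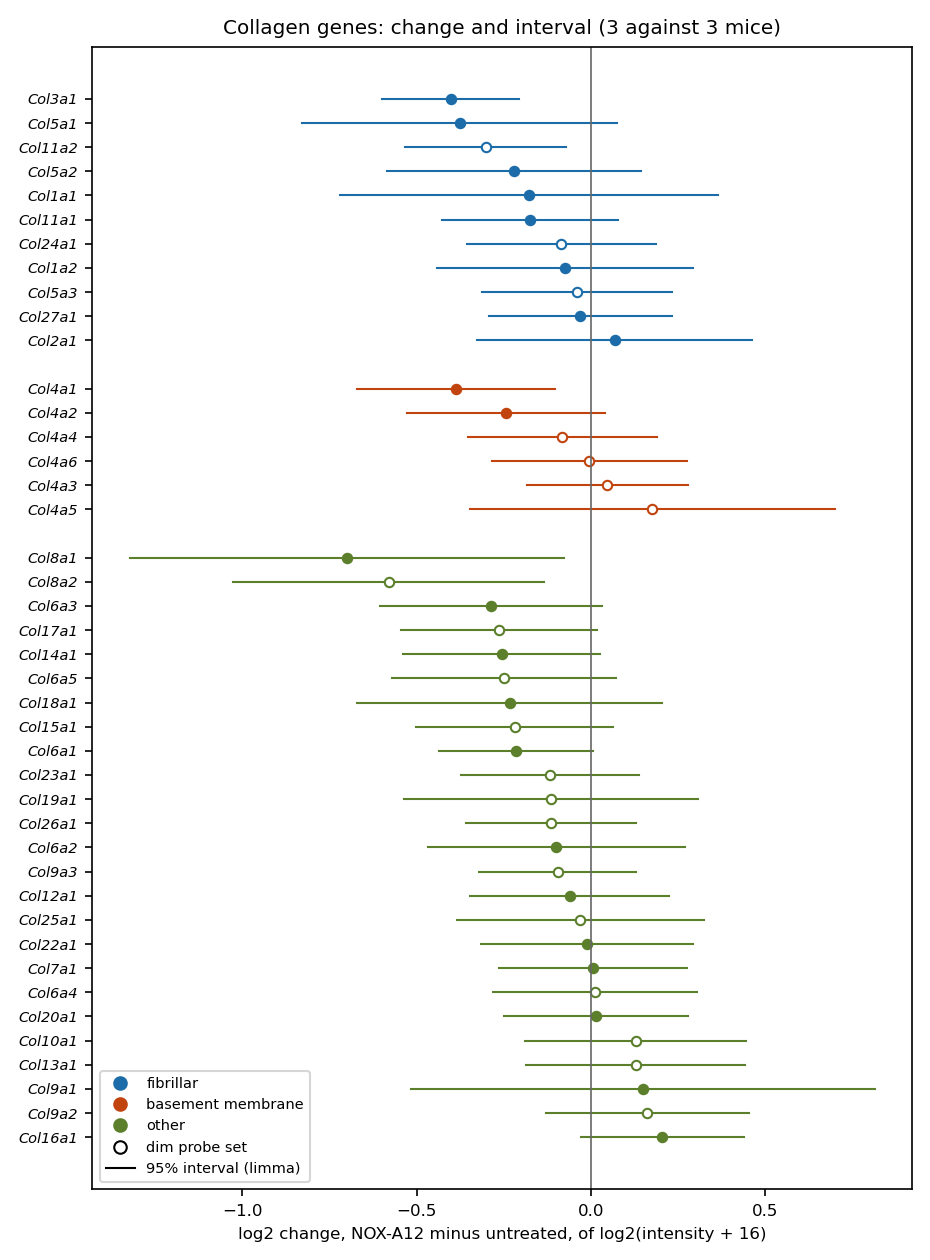
Log2 change (NOX-A12 minus untreated) of each of the 42 collagen genes with its 95% interval from limma, by class, with open circles for dim probe sets. Most points lie left of 0, and the intervals of Col3a1, Col11a2, Col4a1, Col8a1 and Col8a2 do not reach it, but no gene passed the test over all probe sets.

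The fibrillar class had 10 of 11 genes lower, with a median of -0.17, and its members differed in how well the groups were separated. Col3a1, the chain of type III collagen, which is abundant in reticular stroma and vessel walls, had intensities of 118, 118 and 125 in untreated mice 1 to 3 and 88.4, 87.6 and 85.4 in treated mice 1 to 3. The groups were far apart for their spread, and every treated mouse lay below every untreated one. The means were 120.3 ± 3.75 (SD, n = 3) and 87.2 ± 1.56 (SD, n = 3), a change of -0.40 ± 0.08 (SE; 95% interval -0.60 to -0.20). The value stayed between -0.41 and -0.38 when any 1 mouse was left out. A dim second probe set of Col3a1 gave -0.04 ± 0.14, so the difference was seen at the brighter of its 2 probe sets only.

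For type I collagen, the main protein of bone matrix, the groups overlapped. Col1a1 measured 409, 646 and 661 in untreated mice and 578, 375 and 552 in treated mice. The lowest value of the untreated group, in mouse 1, lay below 2 of the treated mice. Its change was -0.18 ± 0.23 (95% interval -0.72 to 0.37). Leaving out NOX-A12 mouse 2 gave 0.01, and leaving out untreated mouse 1 gave -0.39 ± 0.20. Col1a2 measured 1978, 2352 and 1733 in untreated mice and 2122, 1595 and 2039 in treated mice, again overlapping. Its change was -0.07 ± 0.16 (95% interval -0.44 to 0.29), with the sign turned without NOX-A12 mouse 2 (0.05) or untreated mouse 2 (0.04). For both type I chains NOX-A12 mouse 2 was the lowest of the 6 mice. The intervals span differences in either direction and do not show that type I chains were alike in both groups.

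Type V chains join type I fibrils and limit their width. Col5a1 measured 456, 448 and 628 in untreated mice and 336, 341 and 497 in treated mice. Mouse 3 was the highest of each group, and its treated value overlapped the untreated range. The change was -0.38 ± 0.19, and -0.22 without untreated mouse 3, while its other 2 probe sets gave -0.02 ± 0.13 and 0.21 ± 0.17. Col5a2, the neighbour of Col3a1 on chromosome 1, measured 140, 170 and 163 in untreated and 162, 105 and 137 in treated mice. Its groups overlapped, and the change was -0.22 ± 0.16, about the error. Col5a3 was dim and gave -0.04 ± 0.12.

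The cartilage-type fibrillar chains had values on both sides of 0, and differences between chains were not tested. Col11a2, a chain of type XI collagen, measured 51.0, 51.2 and 45.3 in untreated and 37.3, 32.9 and 40.5 in treated mice. The groups did not overlap, at a dim probe set, with a change of -0.30 ± 0.10. Its partner Col11a1 measured 163, 186 and 153 against 158, 136 and 145, with overlap and a change of -0.17 ± 0.11. Col2a1, the main collagen of cartilage, measured 62.8, 60.1 and 67.7 in untreated mice and 89.1, 50.0 and 67.5 in treated mice, the widest range being within the treated group. Its change was 0.07 ± 0.17 (95% interval -0.33 to 0.46), the only value above 0 in the class, and was -0.10 without NOX-A12 mouse 1. The long fibrillar chains Col24a1 (dim) and Col27a1 gave -0.08 ± 0.12 and -0.03 ± 0.11.

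In the basement membrane class the pair Col4a1 and Col4a2, whose products form the type IV network found in nearly all basement membranes, averaged lower, and the 4 restricted chains were dim. Col4a1 measured 155, 145 and 192 in untreated mice and 125, 113 and 126 in treated mice. The groups did not overlap, and untreated mouse 3 was the highest. The means were 164 ± 24.6 (SD, n = 3) and 121 ± 7.48 (SD, n = 3), a change of -0.39 ± 0.12 (95% interval -0.67 to -0.10). The other probe set of Col4a1 also had groups that did not overlap and gave -0.33 ± 0.11. Col4a2 measured 141, 125 and 166 in untreated and 124, 123 and 109 in treated mice. The groups did not overlap, but the lowest untreated and highest treated mouse nearly met. Its change was -0.24 ± 0.12 (95% interval -0.53 to 0.04). Without untreated mouse 3 the changes were -0.28 for Col4a1 and -0.14 for Col4a2.

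The restricted type IV chains Col4a3, Col4a4, Col4a5 and Col4a6, found in kidney and a few other basement membranes, had intensities between 1.30 and 24.6 in single mice. Their changes ran from -0.08 for Col4a4 to 0.18 for Col4a5, each smaller than its SE. A difference was not detectable at these levels. The class median of -0.04 is set mainly by these dim chains.

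Among the other collagens the network-forming type VIII chains, which are made by vessel walls and stroma, had the values farthest below 0 with all mice at the offset of 16. Col8a1 measured 304, 136 and 197 in untreated mice and 110, 102 and 146 in treated mice. The spread among untreated mice was wide, and untreated mouse 2 lay below treated mouse 3. The means were 212 ± 84.8 (SD, n = 3) and 119.5 ± 23.7 (SD, n = 3), a change of -0.70 ± 0.27 (95% interval -1.32 to -0.08), which was -0.42 without untreated mouse 1 and -0.96 without untreated mouse 2. A second probe set gave -0.66 ± 0.24, and the dimmest -0.04 ± 0.16. Col8a2 was dim, at 22.0, 25.8 and 27.1 in untreated mice and 7.55, 21.4 and 7.30 in treated mice. The groups did not overlap, though treated mouse 2 lay just below the untreated mice, and the change was -0.58 ± 0.19. At this dim probe set the size depended on the constant added before the log, at -1.15 with 1 and -0.23 with 64. Col10a1, the network collagen of growth-plate cartilage, had values from 1.00 to 6.39 in all mice.

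Type VI collagen forms beaded microfibrils around cells from 3 main chains. Col6a1 measured 122, 111 and 128 in untreated and 108, 98.0 and 99.0 in treated mice, without overlap, and its change was -0.21 ± 0.09 (95% interval -0.44 to 0.01). Col6a3 measured 48.5, 61.1 and 75.3 in untreated mice and 45.1, 49.1 and 46.9 in treated mice. Only treated mouse 2 reached above the lowest untreated mouse, and the change was -0.29 ± 0.14, or -0.16 without untreated mouse 3. Col6a2, the neighbour of Col6a1 on chromosome 10, measured 102, 87.9 and 129 in untreated and 116, 92.7 and 85.2 in treated mice. Its groups overlapped, with a change of -0.10 ± 0.16 that was 0.03 without untreated mouse 3. It was read at a probe set marked as possibly cross-hybridising, and its other probe set gave -0.11 ± 0.11. With all mice, the 3 partner chains of type VI had values on the same side of 0. Of these 1 was lower without overlap, where 6.68% of all genes were. The alternative chains Col6a4 and Col6a5 were dim and gave 0.01 ± 0.12 and -0.25 ± 0.14. A dimmer probe set of Col6a4 gave 0.31 ± 0.13, with all treated mice above all untreated mice.

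The fibril-associated collagens, which sit on the surface of fibrils, split evenly around 0, with 5 of 9 lower and a median of -0.01. Col16a1 was the only collagen with all treated mice above all untreated mice at the probe set used, at 79.5, 68.1 and 66.2 in untreated and 82.2, 81.7 and 89.7 in treated mice. Its change was 0.21 ± 0.10 (95% interval -0.03 to 0.44). Col14a1, which is found on fibrils of dense connective tissue, gave -0.26 ± 0.12, and -0.13 ± 0.17 and -0.17 ± 0.11 at its other probe sets. Col12a1 gave -0.06 ± 0.12 at its brightest probe set and -0.41 ± 0.15 at a dimmer one whose groups did not overlap. Col9a1, Col9a2 and Col9a3, the cartilage chains of type IX, gave 0.15 ± 0.28, 0.16 ± 0.12 and -0.09 ± 0.10. Col19a1, Col20a1 and Col22a1 lay between -0.11 and 0.02 at the probe sets used. A dimmer probe set of Col22a1 gave 0.29 ± 0.14 and one of Col19a1 -0.19 ± 0.09, each with groups that did not overlap.

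Of the transmembrane collagens, all 4 dim, Col17a1, a chain of epithelial attachment sites, had the lowest value. It measured 15.4, 17.9 and 10.6 in untreated and 9.90, 7.45 and 10.9 in treated mice, with overlap and a change of -0.26 ± 0.12. Col13a1, Col23a1 and Col25a1 gave 0.13 ± 0.13, -0.12 ± 0.11 and -0.03 ± 0.15. Col15a1 and Col18a1, multiplexins of the basement membrane zone whose ends release anti-angiogenic fragments, gave -0.22 ± 0.12 (dim) and -0.23 ± 0.19. Col7a1, the anchoring fibril chain, gave 0.01 ± 0.11, and the dim Col26a1 -0.11 ± 0.10.

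**Figure D2:**
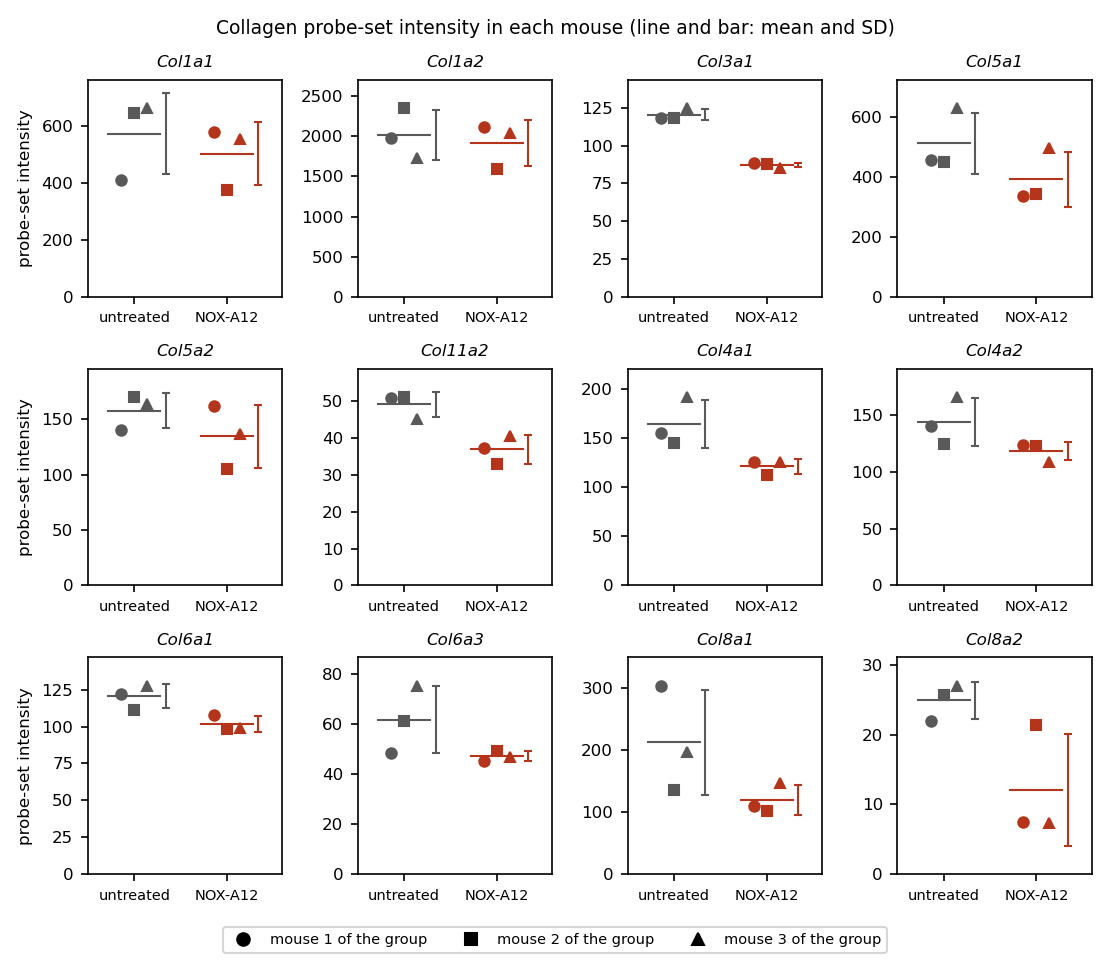
Probe-set intensity of 12 collagen genes in each mouse, with the group mean as a line and the SD as a bar, on axes that start at 0. Col3a1 shows 2 tight groups at 118 to 125 and 85.4 to 88.4, while Col1a1 and Col1a2 overlap and Col8a1 spreads widely in untreated mice.

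Neighbouring collagen genes were set side by side, since 7 pairs of members are adjacent protein-coding genes in RefSeq. Values were -0.40 and -0.22 for Col3a1 and Col5a2, -0.39 and -0.24 for Col4a1 and Col4a2, and -0.21 and -0.10 for Col6a1 and Col6a2. In the pair of Col4a6 and Col4a5 they were 0.00 and 0.18, in that of Col4a4 and Col4a3 -0.08 and 0.05, in that of Col9a1 and Col19a1 0.15 and -0.11, and in that of Col6a5 and Col6a4 -0.25 and 0.01. The 3 pairs with both values below -0.05 are those of bright probe sets, and each of the other 4 pairs has a dim member.

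The mean collagen level per mouse was compared as the mean log2 value over the 42 genes, taken relative to the 6 mice. Untreated mice 1 to 3 lay at 0.00, 0.04 and 0.14, and treated mice 1 to 3 at -0.03, -0.13 and -0.02. The groups were separated by little: untreated mouse 3 was the highest, NOX-A12 mouse 2 the lowest, and the other 4 mice lay within -0.03 to 0.04. In the fibrillar class the values were 0.00, 0.12 and 0.12 against -0.01, -0.21 and -0.03. In the basement membrane class the groups overlapped, at -0.04, 0.06 and 0.10 against -0.01, -0.12 and 0.01. With NOX-A12 mouse 2 left out the fibrillar median was -0.09, and with untreated mouse 2 left out it was -0.08. The basement membrane median was close to 0 (0.00) when untreated mouse 3 was left out. The median of the other collagens was then -0.03.

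**Figure D3:**
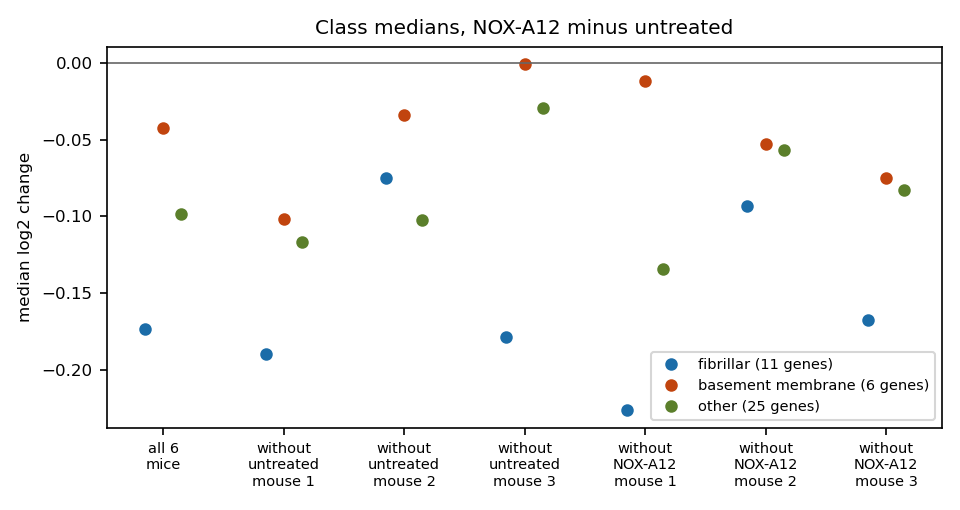
Median log2 change of each collagen class with all 6 mice and with each mouse left out. All medians lie at or below 0, the fibrillar median between -0.23 and -0.08 and the basement membrane median between -0.10 and 0.00.

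Genes that process and surround collagen were read from 6 lists, in none of which a gene had an adjusted p under 0.05 in limma (0 in each list). Enzymes and chaperones of the endoplasmic reticulum, where chains are hydroxylated and folded, had values on both sides of 0: 9 of 21 were lower, with a median of 0.04 that ran from -0.03 to 0.05 with 1 mouse left out. P4ha1, a subunit of the prolyl hydroxylase that stabilises the triple helix, measured 115, 119 and 91.3 in untreated and 165, 138 and 147 in treated mice. Its groups did not overlap, and the change was 0.42 ± 0.12. P3h4 gave -0.29 ± 0.12 and P3h3, a prolyl 3-hydroxylase family gene, -0.35 ± 0.18, both at dim probe sets. Serpinh1, the collagen chaperone of that compartment, gave -0.11 ± 0.12.

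Outside the cell, 9 of 10 genes of propeptide cleavage and cross-linking were lower, with a median of -0.21, or -0.08 with 7 of 10 lower without untreated mouse 3. Lox, which cross-links collagen by oxidising lysines, measured 126, 124 and 119 in untreated and 86.9, 67.1 and 102 in treated mice, without overlap, a change of -0.47 ± 0.14. Pcolce, an enhancer of propeptide cleavage, gave -0.42 ± 0.15 and the dim Pcolce2 -0.28 ± 0.11. Of 11 fibril-associated proteoglycans and glycoproteins 9 were lower, with a median of -0.34. That median was -0.21 when NOX-A12 mouse 2 was left out, and -0.23 when untreated mouse 3 was. Dcn and Bgn, small proteoglycans that bind fibrils, gave -0.47 ± 0.14 and -0.35 ± 0.11, each without overlap, and Ogn -0.42 ± 0.21.

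The partners of type IV collagen in basement membranes had 10 of 14 genes lower, with a median of -0.09. Nid1, the nidogen that links laminin to type IV collagen, measured 131, 140 and 176 in untreated and 80.6, 101 and 80.7 in treated mice, a change of -0.67 ± 0.14 without overlap. Nid2 gave -0.35 ± 0.11 and Pxdn, the peroxidase that cross-links type IV collagen, -0.33 ± 0.11, both dim and without overlap, while the other 11 members, laminin chains and the perlecan gene Hspg2, lay between -0.21 and 0.24. Without untreated mouse 3, 7 of 14 were lower, with a median of 0.00. Of 9 receptors 5 were lower. Ddr2, a tyrosine kinase receptor of fibrillar collagen on mesenchymal cells, measured 85.9, 89.8 and 83.7 in untreated and 51.2, 66.5 and 61.9 in treated mice, a change of -0.44 ± 0.11. Itga10 and Lair1 gave 0.17 ± 0.12 and -0.14 ± 0.13. Of 12 genes of collagen degradation 5 were lower, with Mmp14, a membrane-bound collagenase, at -0.40 ± 0.16, Fap at -0.24 ± 0.11 and Timp1, an inhibitor of these proteases, at 0.28 ± 0.21.

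Markers of the cells that make collagen were read in the same fit, and 0 markers had an adjusted p under 0.05 in limma. Against 52.8% of all genes with a value below 0, the lists gave the following counts, and differences between lists were not tested. The lists were chosen with earlier results of these data known, so the counts are only a description. All 9 reticular stroma markers were lower, with a median of -0.56, or -0.41 without untreated mouse 3. Among them Vcam1, at -0.02, was within its error. At an unadjusted p under 0.05 in limma, 7 of the 9 were lower (77.8%, against 3.53% of all genes). The summed intensity of the 9 ranged from 9423 to 10970 in untreated and from 7596 to 8407 in treated mice, with none near 0. Cxcl12 and Vcam1 made up most of that sum. All 9 endothelial markers had values below 0, Pecam1 at -0.0053 and Emcn at -0.03 within their error, with a median of -0.43 and summed intensities of 866 to 1043 against 672 to 708. Without untreated mouse 2, 7 of these 9 were lower. With all mice, 5 of the 9 were lower at an unadjusted p under 0.05 (55.6%, against 3.53% of all genes). Of 4 adipocyte markers 3 were lower, with a median of -0.45, or -0.30 without untreated mouse 3. Their sums overlapped, at 3323 to 5302 against 2586 to 3788. At an unadjusted p under 0.05, 2 of the 4 were lower (50%, against 3.53% of all genes). Without untreated mouse 3, 0 were (against 2.92% of all genes). Of 7 osteoblast markers 3 were lower and 4 were dim, with a median of 0.00 and sums of 386 to 553 against 329 to 498. The middle value was that of the dim Ifitm5, at 0.0039. The osteoblast median was unstable, at -0.31 without NOX-A12 mouse 3, -0.16 without untreated mouse 1, -0.15 without NOX-A12 mouse 1 and 0.11 without NOX-A12 mouse 2. At an unadjusted p under 0.05, 2 of the 7 were lower (28.6%, against 3.53% of all genes). Osteoblast levels were lowest in NOX-A12 mouse 2, at -0.31 relative to the 6 mice, the mouse that was also lowest for Col1a1 and Col1a2. The next lowest was untreated mouse 1 at -0.14, the lowest untreated mouse for Col1a1, while for Col1a2 that was untreated mouse 3, which had the highest osteoblast level at 0.17. Osteoblast markers were not alone in this: NOX-A12 mouse 2 was also lowest for adipocyte markers (-0.36). It was lowest too for fibril-associated proteoglycans and glycoproteins (-0.25) and for propeptide cleavage and cross-linking (-0.155). For reticular stroma (-0.29) and endothelium (-0.21) NOX-A12 mouse 1 was lowest.

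Cartilage markers had 3 of 9 genes lower, with a median of 0.04, sums of 198 to 369 against 284 to 370 and 8 of 9 dim. At an unadjusted p under 0.05 in limma, 0 of the 9 were lower. The dim Hapln1 (0.32 ± 0.11) was the 1 that was higher, where 1.78% of all genes were. Without untreated mouse 1, 6 of 9 were lower with a median of -0.12, and without untreated mouse 3, 0 of 9 with a median of 0.16. Tendon and fibroblast markers had 3 of 7 lower and sums of 758 to 787 against 759 to 906, with 5 of 7 dim and medians from -0.07 to 0.11 with 1 mouse left out. Most of these sums came from Pi16, at 605 to 686 in untreated and 646 to 795 in treated mice. Of 9 skeletal muscle markers 5 were lower and 8 were dim, with sums of 252 to 622 against 241 to 324, and with 1 mouse left out 3 to 8 were lower. With all mice, 0 of these 9 were lower at an unadjusted p under 0.05 in limma. The dim Ckm (0.38 ± 0.14) was the 1 that was higher, against 1.78% of all genes. The muscle myosin gene Myh1 was 355 in untreated mouse 3 and 8.30 to 24.9 in the other 5, a gene named after its values were seen. The 8 blood-forming cell markers were all bright, and 2 were lower, with a median of 0.07 and sums of 25333 to 29564 against 28113 to 29576. Without untreated mouse 3, 4 of 8 were lower and the median was -0.01. The part of these cell types in the collagen values was not tested.

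**Figure D4:**
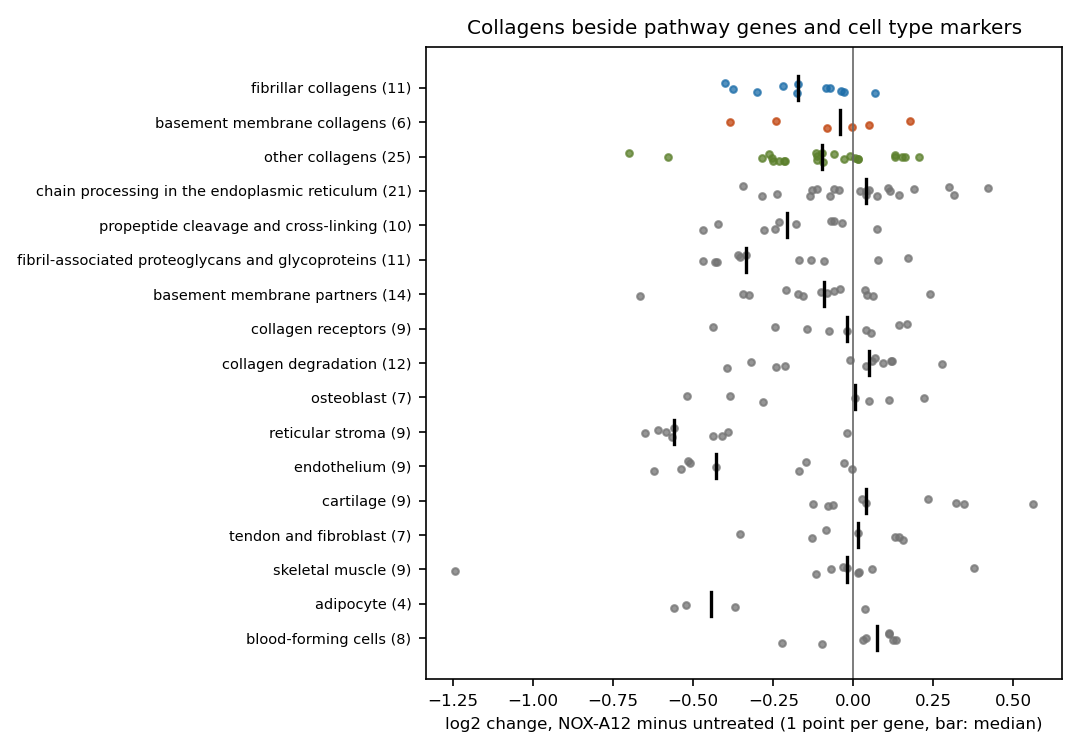
Log2 change (NOX-A12 minus untreated) of every collagen gene by class, of the genes in 6 collagen pathway lists and of markers of 8 cell types, with 1 point per gene and a bar at the median. Reticular stroma and endothelium have medians of -0.56 and -0.43, further from 0 than the collagen classes at -0.17, -0.04 and -0.10. The lists were chosen with earlier results of these data known.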

How the data were processed

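Biotin-labelled RNA of 6 mice was hybridised to 1 array each, per the labels' protocols, and groups and mouse numbers come from the sample titles. The authors' deposited table holds linear probe-set intensity values, from 0.66 to 16790, for 45037 probe sets. Its software and normalization: not given in the sources used here. Array medians lay within 0.0262 on the log2 scale, so values were used as deposited. The number of arrays limits the precision.

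Probe sets were named through the platform annotation: 34945 had 1 symbol, 932 several and 9160 none listed. All probe sets were fitted as log2(intensity + 16) in R 4.3.3 by limma 3.58.1 (lmFit, then eBayes; 7.24 degrees of freedom; no covariate; two-sided), with Benjamini-Hochberg adjustment over all of them at 0.05. Titles number the mice separately, so p-values reflect spread between animals. The fit was tested on simulated data. Named in full were Col1a1, Col1a2, Col2a1, Col3a1, Col4a1, Col4a2, Col5a1, Col5a2, Col6a1, Col6a2 and Col6a3, the 4 members of each class with the smallest p, members whose groups did not overlap, and the 3 genes of smallest p in each pathway list, and the remaining members are given more briefly. Members and lists were chosen with earlier results of these data known. Mouse numbers name different animals, with correlations of deviations of -0.09, 0.05 and 0.03 between same-numbered mice, so no block was used. Alternatives were other normalizations and offsets, a dim filter, variance models, array weights, the block, other probe sets and each mouse left out. Promoter sequences are from RefSeq, GRCm38.p6.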

Additional observations from a re-analysis of the deposited data

How the results depend on the processing

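In each of the 18 alternatives that give such a count, 0 collagen genes passed limma's adjusted threshold, and 0 probe sets did in the settings that fit all probe sets, the lowest adjusted p of any probe set being 0.0631 without untreated mouse 1 and 0.0706 with an offset of 1. Of 318 values of the 19 named genes, 6 turned sign, and 14 genes kept theirs in all settings run. Many of the 318 could not turn. The block, the trend and robust variances and the dim filter leave a gene's change as in the main fit. Other probe sets do so for genes with only 1. Of the 6, Col4a5 was -0.004 with array weights, and Col2a1 -0.10 without NOX-A12 mouse 1. Col1a1 was 0.0145 and Col1a2 0.0525 without NOX-A12 mouse 2. Col1a2 was 0.04 without untreated mouse 2, and Col6a2 0.0311 without untreated mouse 3. Over the 6 fits with 1 mouse left out, Col1a1 ran from -0.395 to 0.0145, Col1a2 from -0.179 to 0.0525, Col2a1 from -0.10 to 0.237 and Col6a2 from -0.209 to 0.0311. In them 26 to 33 genes were lower and 0 passed, and the medians ran from -0.23 to -0.08 (fibrillar), -0.10 to 0.00 (basement membrane) and -0.13 to -0.03 (other). The dim filter kept 22 members, 17 of them lower, and left Col4a1 and Col4a2 alone in the basement membrane class (median -0.31). That median was -0.14 with an offset of 1 and -0.15 with Col15a1 and Col18a1 included. The fibrillar median was -0.0506 at the second probe set of each gene that had more than 1, with the other genes kept at their only probe set. With the mouse number as a replicate block, 31 genes were lower and 0 passed, with a lowest adjusted p of 0.959. Values of the 20 dim members limit what the arrays can show.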
